A study of Mus musculus with 12 samples.

Results

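N6-methyladenosine (m6A) is a methyl mark on adenosines of messenger RNA. It is set in the nucleus by a writer complex, in which Mettl3 carries the catalytic site, Mettl14 holds the RNA, and Wtap, Virma, Zc3h13 and Cbll1 act as adaptors and scaffolds. Proteins with a YTH domain read the mark, Ythdc1 in the nucleus and Ythdf1, Ythdf2 and Ythdf3 in the cytoplasm, and Ythdf2 is known to bring methylated mRNA to the deadenylation machinery. The 10 genes described here are these 6 writer subunits and 4 readers, chosen by name among the 20409 protein-coding genes of the deposited screen tables. All 10 were found, and together they held 728 of the mapped insertions.

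The insertions come from ORFtag, in which a retrovirus brings a PGK promoter, a resistance gene, a tag and a splice donor into the genome. A gene hit in the right orientation and reading frame can then be expressed as a tagged protein. Cassettes for the different frames were mixed, and whether an insertion was in frame was not checked here. Diploid mouse embryonic stem cells derived from the line AN3-12, labelled wild type with a reporter, were used in 3 screens, each in a reporter line that was 1 clone. The PTGR line also carried a retroviral CreERT2 transgene with hygromycin resistance. Activator and repressor screens used the DNA-binding domain of TetR as tag, and the GFP reporter with 7 TetO sites stood at an expression-stable locus on chromosome 15, behind the minimal pMYLPF promoter in the first and behind an active pPGK promoter, with pEF1-BFP before the TetO sites, in the other. In the screen for posttranscriptional gene regulation (PTGR), the tag was λN, and a Puro-IRES-GFP reporter whose mRNA carried 10 boxB sites had integrated at random. Sorted cells had raised GFP in the activator screen, lost GFP in the repressor screen, and reduced GFP in the PTGR screen that rose again once Cre had removed the boxB sites, while unsorted cells were G418-selected transduced cells taken before sorting. Each of the 6 groups had 2 replicate libraries, with 14705 to 60980 insertions within 200 kb of the assigned exon in the sorted libraries and 54088 to 233799 in the unsorted ones. The sum of the 6 unsorted libraries, 1022126 insertions, is called the background here. The PTGR cells were sorted repeatedly and grown between rounds, and hydroxytamoxifen was given before the last round to switch on Cre. For the activator and repressor screens the paper describes neither repeated sorting nor this drug. PTGR sorted and unsorted libraries thus also differ in drug treatment and in rounds of growth. What these steps did to the insertion counts was not tested.

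Each insertion was assigned to the closest exon downstream on its own strand, first exons left out, so each count belongs to a splice acceptor. The 40 acceptors that the members' insertions point to all began an annotated coding-transcript exon (GENCODE vM21, GRCm38). Exon 2 took 84.1% of the 728 insertions, and 93.9% of the 604 outside Virma, which is the placement that keeps most of the protein. From exon 2 on, the coding sequence kept was 94.3% in Mettl3, 95.2% in Mettl14, 99.1% in Cbll1, 98.7% in Ythdc1, 98.4% in Ythdf1 and 98.4% in Ythdf2, and 100% in Wtap, Zc3h13 and Ythdf3. In the background, exon 2 took at least 70.0% of the insertions of each gene except Virma (47.4%) and Zc3h13 (41.7%, 5 of 12).

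The acceptors that matter for the results are shown as 20 bases of intron and 10 bases of exon, 5′ to 3′ on the strand of the gene, with the AG that ends the intron in capitals (RefSeq GRCm38.p6). The first is the acceptor that took more unsorted Virma insertions than any other, at chr4:11494744-11494773 on the plus strand, the next took more PTGR sorted ones than any other, at chr4:11530808-11530837, and the last 3 belong to the YTHDF paralogs, at chr2:180920327-180920356 and chr4:132211447-132211476 on the minus strand and chr3:16183902-16183931 on the plus strand.
Virma exon 2: atgtttcatcctttttatAGcaaagttctc
Virma exon 16: aatgttctccctgcccccAGgacattgcac
Ythdf1 exon 2: cctggcctgcggcgatgcAGagaacaaaag
Ythdf2 exon 2: gacgtcccctcctctcgcAGagaccaaaag
Ythdf3 exon 2: cctctgtcgtcttgcttcAGagacctaaag

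Of the 10 acceptors of exon 2, 10 end in AG. Over the 10 exon bases shown, Ythdf1 and Ythdf2 share 9, Ythdf2 and Ythdf3 share 9, and Ythdf1 and Ythdf3 share 8, while over the 20 intron bases each pair shares 7 to 9. Their background counts were 30, 20 and 16 insertions.

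Virma, the large scaffold subunit of the writer complex, was the only one of the 10 genes past the threshold in any screen, and it passed in the PTGR screen. Its 2 PTGR sorted libraries held 27 and 15 insertions, or 4.43 and 2.56 per 10000 insertions of the library. The PTGR unsorted libraries held 28 and 7, or 1.20 and 1.29 per 10000. The activator unsorted libraries gave 0.456 and 0.674 per 10000, and the repressor unsorted libraries 0.861 and 0.339. Both sorted libraries thus lay above all 6 unsorted ones, with a mean of 3.49 ± 1.32 (SD, n = 2) against 0.804 ± 0.388 (SD, n = 6), 4.35 times as high. The log2 odds ratio of the sorted sum (42 insertions) over the background (78 insertions) was 2.20 ± 0.28 (SE from counting error), with an adjusted p of 1.65e-10 in a one-sided Fisher's exact test over the 9303 genes with at least 3 sorted insertions. A gene was called where the adjusted p was under 0.001 and the log2 odds ratio 1 or more, a rule that 62 genes, 0.666% of those tested, passed in this screen. Virma ranked 44 of these 62 by log2 odds ratio, below their median of 2.70.

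The size of the difference at Virma depended on what it was compared with. Against the 2 PTGR unsorted libraries alone, the log2 odds ratio was 1.53 ± 0.33 and the adjusted p was 0.000746, still past the rule, which 0.43% of tested genes passed there. The PTGR unsorted libraries themselves held more Virma insertions than the other 4 unsorted libraries, 35 of 287887 against 43 of 734239. That difference, 1.05 ± 0.33 as a log2 odds ratio (adjusted p = 0.0789 in the same Fisher test), was looked for after the values were seen and was not called, as 0.203% of genes were. With the spread between replicates in the model, Virma was not called: edgeR's quasi-likelihood test of 2 sorted against 2 PTGR unsorted libraries gave a log2 fold change of 1.63 with an adjusted p of 0.00301, where 1.95% of the genes tested were called. With replicates as a block it gave 1.78 (adjusted p = 0.00950, 1.83% called), and DESeq2 gave 1.56 (adjusted p = 0.935, 0.349% called). Without sorted replicate 1 the log2 odds ratio was 1.75 and the adjusted p 0.00914, and without sorted replicate 2 it was 2.54 with an adjusted p of 4.27e-09.

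In the other screens Virma had few sorted insertions. The activator sorted libraries held 1 and 2 insertions (0.575 and 1.36 per 10000), against 8 and 14 in the activator unsorted libraries, and the values overlapped those of the background. The log2 odds ratio there was 0.29 ± 0.85 (adjusted p = 1, Fisher's exact test). The repressor sorted libraries held 1 and 0 insertions, which was too few to test. The difference between screens was tested itself, as the interaction in edgeR's quasi-likelihood fit of all 12 libraries. The sorted-over-unsorted change at Virma was higher in the PTGR than in the activator screen by 0.55 on the log2 scale (adjusted p = 0.955) and higher than in the repressor screen by 1.92 (adjusted p = 0.575). Among all genes, 3.93% and 6.46% passed an adjusted p of 0.05 in these tests, and at this depth no difference in Virma between the screens was detectable.

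**Figure D1:**
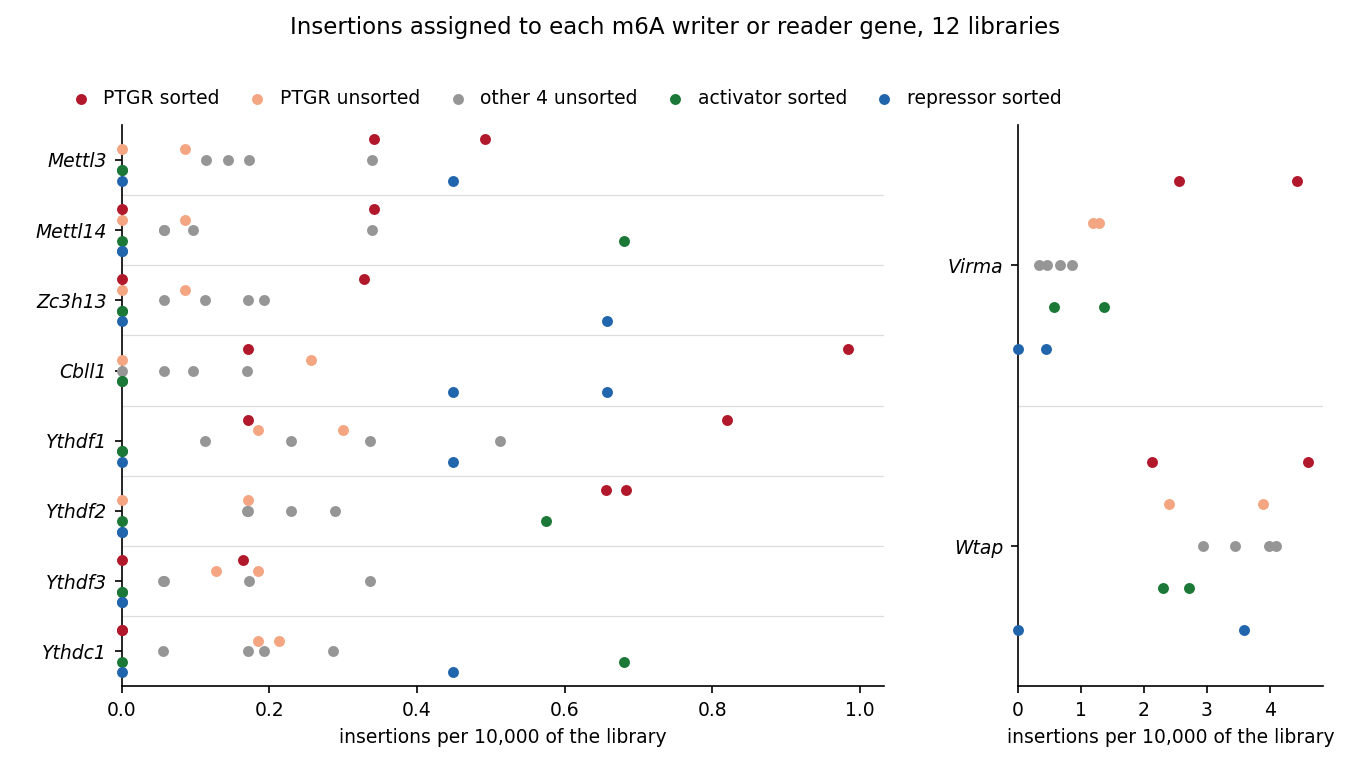
Insertions assigned to each gene, per 10000 insertions of the library, with 1 point for each of the 12 libraries, coloured by screen and sorting (equal values overlie each other), and Virma and Wtap on an axis of their own. Both PTGR sorted libraries (4.43 and 2.56) lie to the right of all unsorted libraries at Virma, at most 1.29, while the points mix at Wtap.

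The catalytic subunit Mettl3 and its partner Mettl14 were hit rarely. Mettl3 had 3 and 2 insertions in the PTGR sorted libraries, 0.492 and 0.342 per 10000, and 0 to 0.339 per 10000 in the 6 unsorted libraries. The groups did not overlap, but the log2 odds ratio of 1.42 ± 0.74 (5 against 16 insertions) had an adjusted p of 0.481 and was not called. Against the 2 PTGR unsorted libraries alone, which held 2 and 0 insertions, it was 2.59 ± 1.21 (adjusted p = 0.527). Mettl14 had 0 and 2 insertions in the PTGR sorted libraries and 12 in the background, too few to test. In the other screens, activator and repressor sorted sums held 0 and 1 insertions of Mettl3 and 1 and 0 of Mettl14.

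Wtap, the adaptor that keeps the Mettl3 and Mettl14 pair in nuclear speckles, was the most often tagged of the 10 genes, with 371 background insertions at 2.40 to 4.09 per 10000. Its PTGR sorted libraries held 13 and 27 insertions, 2.13 and 4.61 per 10000, so 1 lay below and 1 above the whole unsorted range. The log2 odds ratio was -0.12 ± 0.24 (adjusted p = 1), and its 95% interval of -0.59 to 0.35 did not reach the threshold of 1. It was 0.35 ± 0.29 without sorted replicate 1 and -0.77 without sorted replicate 2, and between 0.01 and 0.08 by edgeR and DESeq2, so its sign is not settled. The activator sorted libraries held 4 and 4 insertions (log2 odds ratio -0.54 ± 0.52) and the repressor sorted libraries 8 and 0 (-0.77 ± 0.52), with adjusted p-values of 1 in both. The intervals of the activator and repressor screens also ended below 1, at 0.47 and 0.24, though edgeR put the repressor value at 0.23. Of the 10 genes, Wtap had the smallest counting error in each screen.

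Cbll1, the E3 ligase also known as Hakai, had the highest PTGR log2 odds ratio of the 10 genes, on few insertions. Its sorted libraries held 6 and 1 insertions, 0.984 and 0.171 per 10000, against 0 to 0.257 in the unsorted libraries, so only replicate 1 lay above the background. The log2 odds ratio was 2.32 ± 0.69 (7 against 12 insertions), with p = 0.00222 in Fisher's exact test and 0.110 after adjustment over all genes tested. Against the 2 PTGR unsorted libraries, which held 6 of the 12 background insertions, it was 1.49 ± 0.80 (adjusted p = 0.728). Without sorted replicate 2 it was 3.07, while without sorted replicate 1 the 1 sorted insertion left was too few to test. In the repressor screen both sorted libraries held 1 insertion each, 0.449 and 0.658 per 10000, above the unsorted libraries but too few to test.

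Zc3h13, a zinc-finger subunit that anchors the complex in the nucleus, had 2 and 0 PTGR sorted insertions against 12 in the background, while its activator and repressor sorted sums were 0 and 1.

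Among the readers, Ythdf2 had the steadiest values. Both PTGR sorted libraries held 4 insertions, 0.656 and 0.683 per 10000, and the unsorted libraries reached at most 0.289. The groups did not overlap, and the log2 odds ratio was 1.77 ± 0.60 (8 against 20 insertions) with p = 0.00654 in Fisher's exact test, which became 0.196 after adjustment. Over the PTGR unsorted libraries alone it was 2.27 ± 0.88 (8 against 4, adjusted p = 0.40). The gene is thus not called, and the 95% interval of 0.59 to 2.96 leaves the size wide. Ythdf1 had 5 and 1 sorted insertions, 0.820 and 0.171 per 10000, against 0.113 to 0.513 in the unsorted libraries. Its log2 odds ratio was 0.77 ± 0.65 (adjusted p = 0.677). With single libraries left out it lay between 0.60 and 1.48, the highest without sorted replicate 2, and was not called. That range does not cover the setting without sorted replicate 1, where the 1 sorted insertion left was too few to test. Sorted replicate 2, at 0.171 per 10000, lay within the unsorted range. Ythdf3 had 1 PTGR sorted insertion against 16 in the background. For Ythdc1, the nuclear reader, 0 of 119540 PTGR sorted insertions were found, which allows up to 0.251 per 10000, a limit above its background mean of 0.184.

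**Figure D2:**
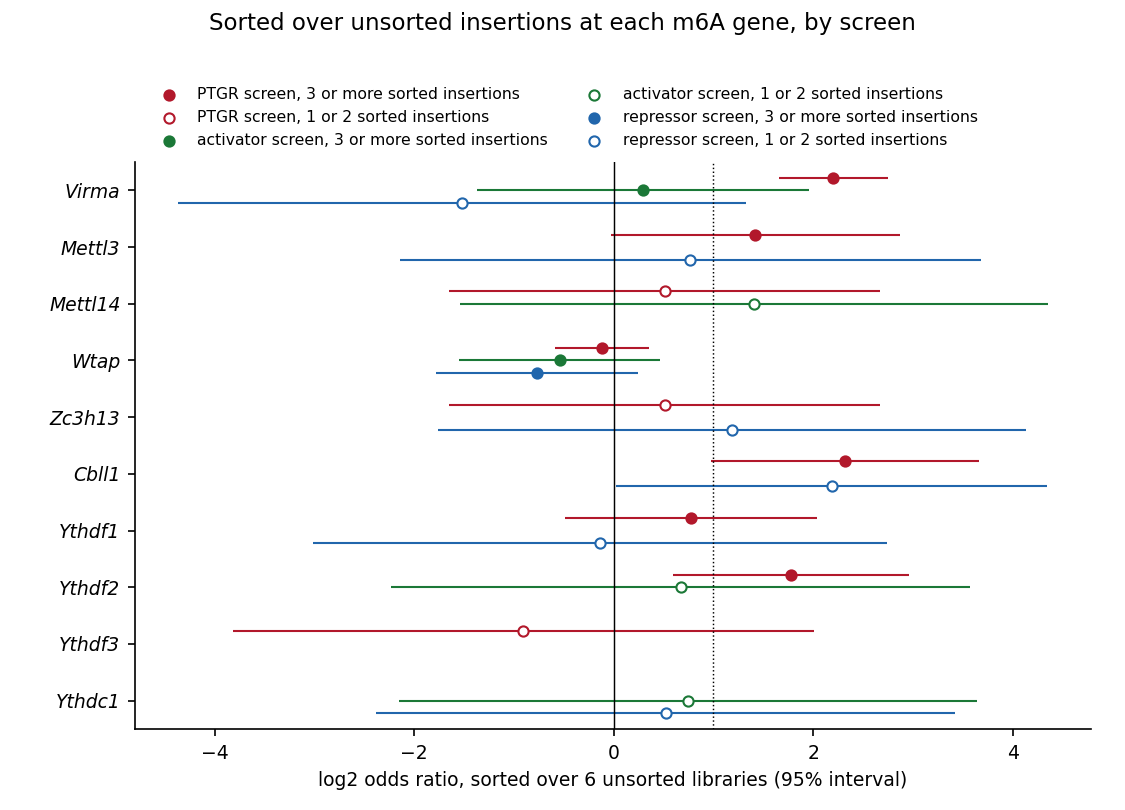
Log2 odds ratio of the sorted sum over the 6 unsorted libraries for each gene and screen, with 95% intervals from counting error, filled for 3 or more sorted insertions and open for 1 or 2, and no point where a gene had 0 sorted insertions. The dotted line marks the threshold of 1, and the PTGR value of Virma (2.20, interval 1.66 to 2.74) is the only one whose interval lies wholly beyond it.

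Counted as a set, 1 of the 6 members with at least 3 sorted insertions was called in the PTGR screen, where 0.666% of tested genes were. Only Virma and Wtap could be tested in the activator screen and only Wtap in the repressor screen, and 0 were called in each by Fisher's exact test, where 4.64% and 8.18% of tested genes were. No tested member had an unadjusted p under 0.05 in those 2 screens. There edgeR kept only Wtap of the members, and DESeq2 gave an adjusted p only to Virma and Wtap. Both tools called 0 of these, where edgeR called 3.6% and 6.48% of its genes and DESeq2 2.09% and 3.31%. All 10 members had at least 10 background insertions. In the PTGR screen 7 of the 10 lay above the background, with a median log2 odds ratio of 0.64, against 45.0% of the 12033 genes with as many background insertions and a median of -0.10. Both sorted libraries lay above all 6 unsorted libraries at 3 of the 10 (Virma, Mettl3 and Ythdf2), as they did at 4.62% of those genes. In the activator screen 4 of the 10 lay above the background, against 26.3% of those genes, and 0 of the 10 had groups that did not overlap, against 4.05%. In the repressor screen 4 of the 10 lay above it, against 18.1%, and 1 (Cbll1) did not overlap, against 4.01%. These positions rest on 1 to 3 sorted insertions per gene, and 5 of the 10 had 0 in the activator and 3 of the 10 had 0 in the repressor sorted libraries.

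Other genes of the m6A pathway did not pass the rule. Of 23 listed erasers, further methyltransferases, readers and cofactors, 22 were in the tables and 16 had at least 3 PTGR sorted insertions, of which 0 were called by Fisher's exact test. The demethylase Fto had 15 against 94 background insertions (log2 odds ratio 0.45 ± 0.40), the methyltransferase Mettl16 had 18 against 104 (0.57 ± 0.37), and the 3 IGF2BP proteins, which bind methylated mRNA, lay at -1.87 (Igf2bp1), -0.26 (Igf2bp2) and -0.14 (Igf2bp3). The unadjusted p in Fisher's exact test was under 0.05 for Prrc2a, a proposed reader (5 against 5 insertions, log2 odds ratio 3.10 ± 0.91, adjusted p = 0.105), and for Cnot1, the scaffold of the deadenylase complex (24 against 119, 0.79 ± 0.32, adjusted p = 0.291). Of the 20 listed genes with at least 10 background insertions, 6 lay above the background in the PTGR screen. The median log2 odds ratio of these 20 was -0.19, against -0.10 over all genes with as many, of which 45.0% lay above it. In the activator and repressor screens 6 and 3 of the list could be tested and 0 were called. For reversed insertions, Hnrnpa2b1, a nuclear RNA-binding protein listed as a reader, was called in the repressor screen with 84 against 269 (log2 odds ratio 3.35 ± 0.18), where 5.61% of genes were, while its sense insertions there numbered 1 against 222. Reversed insertions lie against the strand of Hnrnpa2b1 and cannot tag it, and the gene they lead into was not examined here.

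At Virma the insertions were spread over more exons than at the other members, with 14 acceptors used, and their positions differed between sorted and unsorted cells. At Zc3h13, which also had many insertions beyond exon 2, 5 of 12 background insertions and 0 of 2 PTGR sorted ones led into exon 2, too few to compare. Virma lies on the plus strand of chromosome 4, from 11485958 to 11550684 (GRCm38), and spans 64727 bp. In the transcript whose exon numbers the files use, with 24 exons, an insertion before exon 2 keeps 98.8% of the 5433 coding bases, and one before exon 16 keeps 28.7%. In the background 37 of 78 insertions (47.4%, 95% Wilson interval 36.7 to 58.4%) led into exon 2. In the PTGR sorted libraries 4 of 42 did (9.52%, 3.77 to 22.1%), a lower share (two-sided Fisher's exact test, p = 1.76e-05). Exon 2 was tested because it held the most background insertions, a choice that by itself favours a lower share in the sorted libraries. The test treats pooled insertions as independent and covers counting error only. Against the PTGR unsorted libraries, in which 14 of 35 did (40.0%), the exact p was 0.00250. The 2 sorted libraries were not alike, with 0 of 27 and 4 of 15 insertions at exon 2, and without replicate 1 the share was 26.7% and the exact p 0.165.

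Exon 16 was the most common target in both sorted libraries. It took 13 of 27 insertions (48.1%) in replicate 1 and 7 of 15 (46.7%) in replicate 2, against 20 of 78 in the background (25.6%, 17.3 to 36.3%) and 10 of 35 in the PTGR unsorted libraries (28.6%, 16.3 to 45.1%). Exons 17 to 23, near the end of the coding sequence, took 8 of 27 insertions in replicate 1, 0 of 15 in replicate 2 and 11 of 78 in the background. Exon 8 took 2 insertions in each sorted library and 1 in the background. The median insertion kept 28.7% and 33.3% of the coding sequence in the sorted libraries, 37.7% in the sum of the PTGR unsorted libraries and 87.4% in the background. In single unsorted libraries this median ran from 28.7% to 98.8%, so the sorted values lie within that range. Most PTGR sorted insertions thus stood before exons for the C-terminal part of Virma and not before exon 2. Exons 14 to 16 took 26 of 42 PTGR sorted (61.9%) and 14 of 35 PTGR unsorted insertions (40.0%). Exons 17 to 23 took 8 and 5 of them. In the PTGR unsorted libraries these later exons together also took more than exon 2, which took 14.

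**Figure D3:**
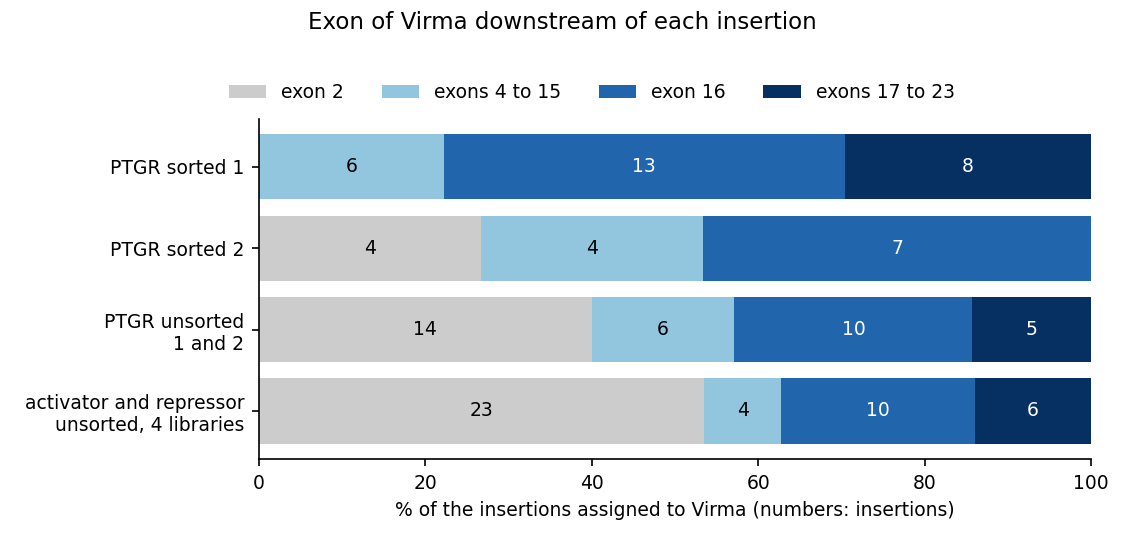
Share of the insertions assigned to Virma by the exon they lead into, as a percentage of each library or group of libraries, with the number of insertions in each bar. Exon 2 holds 0 of 27 and 4 of 15 insertions in the PTGR sorted libraries, against 14 of 35 in the PTGR unsorted and 23 of 43 in the other unsorted libraries.

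The map of the locus shows the same difference by position, since the Virma insertions upstream of the gene led into exon 2. Inside the gene lay 27 of 27 and 12 of 15 sorted insertions, 92.9% of the sum (81.0 to 97.5%), against 41 of 78 in the background (52.6%, 41.6 to 63.3%) and 21 of 35 in the PTGR unsorted libraries (60.0%, 43.6 to 74.4%). When only these insertions were counted and the whole table was tested again, the log2 odds ratio of Virma was 3.02 ± 0.32 (adjusted p = 2.16e-15, Fisher's exact test). With only those upstream of the gene it was -0.53 ± 0.87 (3 against 37, adjusted p = 1). This split was chosen after the positions were seen and was made at Virma alone. Both values therefore follow largely from that choice and are not evidence apart from the exon shares. For comparison, 10 of 40 Wtap sorted insertions (25.0%) and 21.3% of its background insertions lay inside Wtap.

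Insertions on the minus strand, which cannot fuse the tag to Virma, were also more frequent inside the gene. PTGR sorted replicate 1 held 27 plus-strand and 8 minus-strand insertions within the gene, and replicate 2 held 12 and 13. The PTGR unsorted libraries held 21 and 14 in sum, and the other 4 unsorted libraries 20 and 20. The log2 odds ratio over the background was 3.02 ± 0.32 on the plus strand and 2.40 ± 0.40 on the minus strand, and over the PTGR unsorted libraries 2.16 ± 0.39 and 1.85 ± 0.50, so the 95% counting intervals of the strands overlapped. A window of 4233 bp from exon 13 to the end of intron 15 (11526595 to 11530827), 6.54% of the length of the gene, held 36 of the 60 PTGR sorted insertions on both strands (60.0%, 47.4 to 71.4%). The same window held 37 of the 75 background insertions (49.3%, 38.3 to 60.4%), so about as large a share lay there before sorting.

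**Figure D4:**
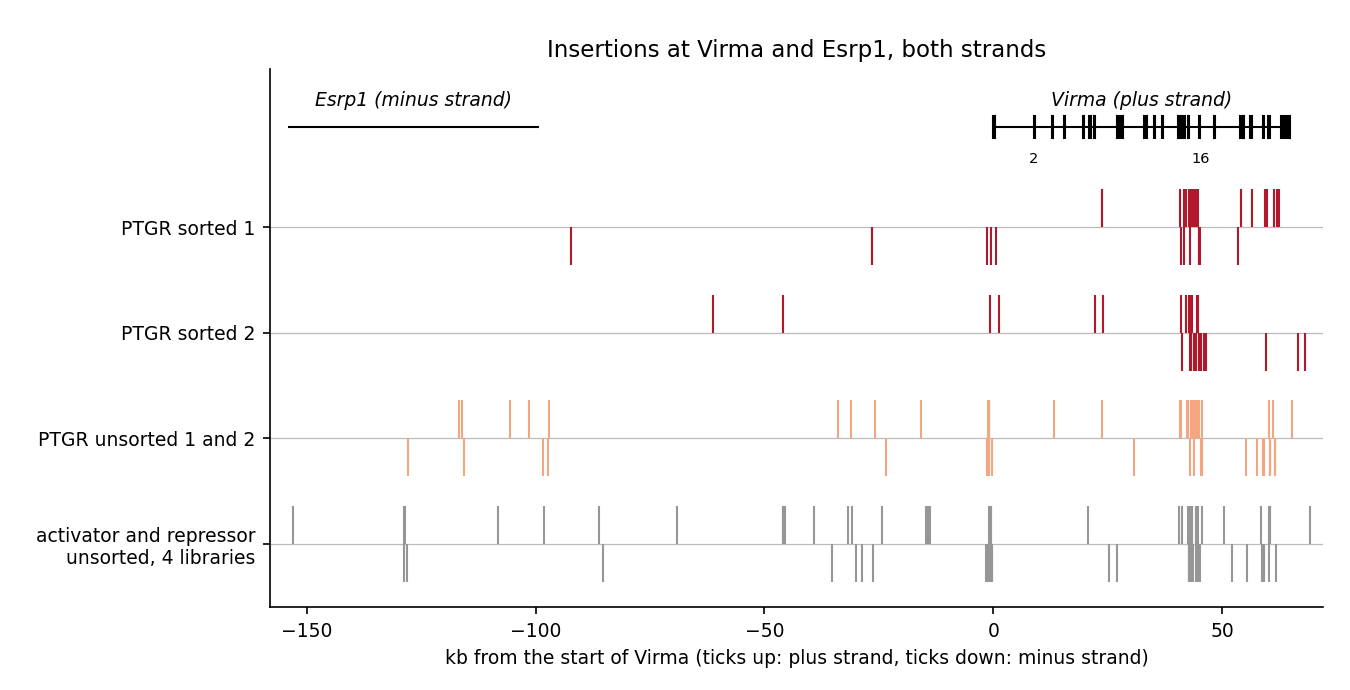
Insertions around Virma on both strands, in kb from the start of the gene, with a tick for each insertion, up for the plus strand and down for the minus strand, and black boxes for the exons of Virma. Plus-strand ticks gather before exon 16 in both PTGR sorted libraries, and minus-strand ticks do so mainly in replicate 2. Intron 15 holds 12 plus-strand and 1 minus-strand insertions in replicate 1, and 6 and 6 in replicate 2. Unsorted libraries also have many ticks there, and 39 of 42 plus-strand PTGR sorted insertions assigned to Virma lie inside the gene.

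The paper flags hits whose reversed insertions are also enriched and advises caution, as such patterns may be true or false positives. Assigned with the strand turned, Virma passed the calling rule for reversed insertions. The reversed assignment gave 14 and 13 insertions in the PTGR sorted libraries, 2.35 and 2.24 per 10000, against 0.372 to 0.956 in the 6 unsorted libraries. The log2 odds ratio was 1.88 ± 0.33 (27 against 63, adjusted p = 5.41e-05, Fisher's exact test), where 0.5% of genes passed. Virma was the only one of the 6 members tested that passed. It fell below the rule against the PTGR unsorted libraries (1.44, adjusted p = 0.0617) and without either sorted replicate (adjusted p = 0.0149 without replicate 1 and 0.00826 without replicate 2). The share of sense insertions among both assignments was 60.9% in the sorted sum and 55.3% in the background, and the two-sided Fisher's exact test found no difference (p = 0.462, adjusted p = 1), while 0.641% of the genes tested differed. Of the 4 members with enough insertions for this test in the PTGR screen, 0 differed, and 0 had an unadjusted p under 0.05. At Wtap the sense share was 39.6% against 49.1% (p = 0.0894, Fisher's exact test).

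The neighbour on the other strand is Esrp1, an epithelial splicing regulator, which lies at 11331933 to 11386783 on the minus strand, head to head with Virma. All 42 PTGR sorted insertions of Virma go to Esrp1 when their strand is turned, as do 73 of 78 in the background. Esrp1 itself had 23 and 25 PTGR sorted insertions, 3.77 and 4.27 per 10000, against 1.20 to 2.18 in the unsorted libraries. Its log2 odds ratio was 1.11 ± 0.23 (adjusted p = 0.00102, Fisher's exact test), just outside the rule. In the activator screen, both sorted libraries also lay above all 6 unsorted ones at Esrp1. The log2 odds ratio in that screen was 0.88 ± 0.45 (11 against 190, adjusted p = 0.492, Fisher's exact test), and Esrp1 was not called. The repressor sorted libraries held 2 Esrp1 insertions in sum, too few to test. The paper counts both Virma and Esrp1 among its PTGR hits and flags both for reversed insertions, so Esrp1 is a hit there and not here. All 48 PTGR sorted insertions assigned to Esrp1 lay upstream of it at a median of 150081 bp from the exon, and 21 of them lay inside Virma. Without those 21, the value for Esrp1 was 0.57 ± 0.30 with an adjusted p of 0.429 (27 against 156). Inside Esrp1 itself the PTGR sorted libraries held 0 insertions on either strand, while the background held 12 on both strands together. A count of 0 allows up to 0.251 per 10000. That limit is above the background values of 0.0783 (plus strand) and 0.0391 (minus strand), so the insertions inside Esrp1 are too few to compare. Whether the sorted cells were selected through Virma, through Esrp1 or through neither was not tested.

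Only 1 position of Virma was found in both PTGR sorted libraries, 11527961 on the plus strand. Replicate 1 shared 3 positions with PTGR unsorted replicate 1, and replicate 2 shared 0 with either unsorted library. Some positions of 1 library lay very close together, and merging those within 5 bp left 24 of the 27 in replicate 1 and 14 of the 15 in replicate 2. With positions merged in this way in all libraries and genes, the log2 odds ratio was 2.15.

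Across the 12 libraries, the genes whose insertions per 10000 followed Virma most closely were Optn, an autophagy receptor (Pearson r = 0.952), Ran, the GTPase of nuclear transport (0.923), Tnrc6b, a protein of microRNA-mediated silencing (0.909), Upf2, a factor of nonsense-mediated decay (0.902), and Pnrc1 (0.901), out of 9731 genes with at least 20 insertions. These are descriptions over 12 points that share libraries and depth. Their PTGR log2 odds ratios were 2.92 (Optn), 1.26 (Ran), 4.34 (Tnrc6b), 1.74 (Upf2) and 1.48 (Pnrc1), values that their choice by the same libraries largely fixes. The members most like Virma were Wtap (r = 0.652) and Ythdf2 (0.498), and Cbll1 was the least like it (-0.08) among the 6 members with enough insertions.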

How the data were processed

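Insertion sites of 12 libraries came from inverse PCR products. Per the study's methods, the authors trimmed the reads (Trim Galore 0.6.0), mapped them with Bowtie2 on mm10, took out duplicates and poorly mapped reads (SAMtools 1.9) and gave each insertion the closest downstream exon of the GENCODE vM25 protein-coding set. The deposited lists hold positions, exon numbers and distances, from which counts of insertions per gene and library were made here. The deposited screen tables hold counts pooled over libraries. Their log2 odds ratios, adjusted p-values and hit flags are the authors' own comparisons and were not used. No column of per-sample values was left unmapped.

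A position on 1 strand counted once per library, however often it was listed. This bears on PTGR sorted replicate 2, where 12.7% of positions were listed repeatedly, and on the repressor unsorted libraries, where all were. Insertions at most 200 kb from the exon were summed over the 2 sorted libraries of a screen and compared with all 6 unsorted libraries in Fisher's exact test, one-sided for more sorted insertions (scipy 1.17.1), with Benjamini-Hochberg adjustment over genes with at least 3 sorted insertions and the calling rule given above. The test on sums covers counting error only, and copies of 1 transduced cell in several libraries are not independent. Alternatives were edgeR 4.0.16 (quasi-likelihood test, TMM, with and without a replicate block), DESeq2 1.42.0, other backgrounds, distances, minimum counts and single libraries left out. Per the study's methods, unsorted cells were taken from the transduced pool that was then sorted. Same-numbered PTGR libraries shared 19.5% and 6.98% of the sorted positions, against 0.397% and 1.93% across numbers, and activator libraries 5.17% and 19.2% against 2.35% and 1.39%, so numbers pair the libraries there. Repressor libraries shared 8.50% and 8.72% within and 10.0% and 5.47% across numbers. Deviations from group means correlated at 0.0512 (activator), 0.00592 (repressor) and 0.261 (PTGR). The tests were checked on simulated counts first. Exons were matched to GENCODE vM21 and sequences read from RefSeq GRCm38.p6. Shares have 95% Wilson intervals, and a count of 0 allows up to 3 counts.

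The members, the pathway list and the tests were chosen with earlier results of these data known. Named genes were the 10 members, the listed pathway genes, the opposite-strand neighbour of a called member, and the 5 genes most correlated with Virma over log2 values with 0.1 added. Cell markers were not checked, since the lists hold no expression. Fusion transcripts and GFP intensities were not analysed here.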

Additional observations from a re-analysis of the deposited data

Results flagged for a closer look

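Among the 20 sets of values of the 10 genes over the 6 unsorted libraries, sense and reversed, 1 held a library far from the others, and chance alone places about 1 in 20 so. It was Mettl14, the RNA-binding partner of Mettl3, in repressor unsorted replicate 2, which held 6 insertions or 0.339 per 10000, with the next highest library at 0.0963. No test of a sorted group rested on it, since Mettl14 had too few sorted insertions in each screen.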

How the results depend on the processing

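Of the 226 alternative values, 200 stayed the same, in direction and side of the threshold or, for numbers of members called, in about the same number. Of the rest, 11 turned direction, 8 fell below the threshold and 7 were numbers of members called that moved. Settings that left a gene too few sorted insertions to test are not among the 226. Virma in the PTGR screen ranged from 1.75 to 2.54 in log2 odds ratio when single libraries were left out. It was not called without sorted replicate 1, nor by edgeR (1.63), edgeR with a replicate block (1.78) or DESeq2 (1.56). Each tool called 0 members there, but gave an adjusted p only for Virma and Wtap, so the others could not be called by it. For reversed insertions 0 members were called against the screen's own unsorted libraries (Virma 1.44) or without either sorted replicate (0 in both, Virma 1.85 to 1.91). The sense share of Virma ranged from 53.6% to 65.9%, and its exon 2 share from 0% to 26.7%. With upstream insertions alone Virma lay at -0.53, an alternative chosen after seeing the data.

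Wtap, not called under any setting, turned sign in the PTGR screen by edgeR (0.085), with the block (0.012) and by DESeq2 (0.071), and ranged from -0.77 to 0.35 with libraries left out. In the repressor screen it turned by edgeR (0.23) and with the block (0.19). Its sense share of 50.0% in the activator and 47.1% in the repressor sorted libraries stood against 49.1% in the background but against 51.7% and 43.9% in the own unsorted libraries, which turned the differences. Without repressor sorted replicate 2 the share was 72.7%. The causes were not tested.

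Pairing the replicates as a block changed no call of a member against edgeR without it (Virma 1.78 against 1.63), and moved the calls over all genes from 33 to 31 in the PTGR screen. Depth limits 8 of the 10 genes, which had at most 30 background insertions each.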

Other observations

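Reversed insertions of the other members gave no call in the PTGR screen. Wtap had 61 in the sorted libraries against 384 in the background, a log2 odds ratio of 0.45 ± 0.20 with an adjusted p of 0.300 (Fisher's exact test). Ythdf3 had 6 against 19 (1.44 ± 0.68, adjusted p = 0.412), where its sense insertions numbered 1 against 16, and Cbll1 had 1 against 23, where its sense insertions numbered 7 against 12.

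Some sorted insertions were at positions also found before sorting. At Cbll1, 2 of the 6 positions of PTGR sorted replicate 1 were also in PTGR unsorted replicate 1, and at Mettl3 1 of 3 was. At Ythdf2, 0 of the 8 sorted positions were in the PTGR unsorted libraries.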
